A study of Mus musculus with 6 samples.

Results

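The genes described are 10 members of the ETS family of transcription factors, measured in the intestine of mouse embryos with and without the transcription factor KLF5. They were chosen by symbol: Elf3, Ehf, Elf5, Elf1, Elf2, Elf4, Ets1, Ets2, Etv4 and Etv5. All 10 were found on the array, each as the brightest row annotated to that symbol alone, among 19938 genes in all. Groups were Klf5D/D embryos (Klf5-deleted in the plots) and Klf5wt/wtShhEGFP/Cre+ embryos, called control, both at embryonic day E14.5, before villi form, and both of a mixed strain background that is part C57Bl/6. The control label names an Shh allele that carries EGFP and Cre, and Shh is expressed in the gut epithelium, whereas the Klf5D/D label names no Cre allele. Each group held 3 Affymetrix Mouse Gene 1.0 ST arrays, and each array held RNA from a pool of 2 whole intestine segments taken about 1.5 cm anterior to the cecum. Values are log2 signals normalised by the authors with RMA, so a difference of 1 is a 2-fold difference in signal, and a signal is compared only within a gene, never between genes.

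ETS proteins share a winged helix-turn-helix DNA-binding domain, the ETS domain, which reads sequences around a GGAA core. Family members differ in the tissues that express them: ELF3, EHF and ELF5 form the epithelium-specific (ESE) group, ELF1, ELF2 and ELF4 are found in many tissues and in lymphoid cells, ETS1 is typical of mesenchyme, endothelium and lymphocytes, and ETV4 and ETV5 are induced by FGF receptors through ERK signalling. ELF3 is required in mice for normal villi and enterocyte differentiation of the small intestine. These classes come from general knowledge of the family and not from these arrays.

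The arrays differed in the sex of the pooled embryos as well as in genotype. Xist, whose RNA coats the inactive X of females, read 5.89, 6.34 and 6.47 in the Klf5D/D arrays, against 12.61, 12.14 and 11.93 in the controls. The mean linear signal of the Y-linked genes Eif2s3y, Kdm5d and Uty was 974 to 1050 in the Klf5D/D arrays, against 56.9, 511 and 451 in control replicates 1 to 3. The control arrays therefore spanned a range of Y-linked signal, and the Klf5D/D arrays did not. Scaled from 0 for the lowest array to 1 for the highest, the share of Y-linked signal was 0.92 to 1 in the Klf5D/D arrays. In control replicates 1 to 3 it was 0, 0.46 and 0.40. A fit with this share as a covariate leans on the spread of the controls, with a median SE of 0.147 against 0.0594. Calls kept or lost in it do not separate sex from genotype, which cannot be told apart here. Klf5 itself read 10.24, 10.49 and 10.34 in the Klf5D/D arrays and 11.55, 11.74 and 11.77 in the controls, so it fell by 1.33 log2 units (limma, SE 0.08, adjusted p = 9.62e-05, n = 3 arrays per group). Across all rows of the table, r was 0.994 to 0.997 between arrays of one group and 0.989 to 0.993 between arrays of different groups.

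The promoter of Elf3, the member with the largest change, is shown with those of Elf2, which had the smallest, and of Etv5, which had the largest rise. Each is the window from 250 bases before to 50 bases after the annotated start, taken from RefSeq on build GRCm38.p6 and given 5′ to 3′ as the table lists it for the gene's strand. Capitals mark matches on either strand to CCNCNCCC, the letters of a CACCC or GC box of the kind that Krüppel-like factors bind, and neighbouring matches that overlap run together.
Elf3: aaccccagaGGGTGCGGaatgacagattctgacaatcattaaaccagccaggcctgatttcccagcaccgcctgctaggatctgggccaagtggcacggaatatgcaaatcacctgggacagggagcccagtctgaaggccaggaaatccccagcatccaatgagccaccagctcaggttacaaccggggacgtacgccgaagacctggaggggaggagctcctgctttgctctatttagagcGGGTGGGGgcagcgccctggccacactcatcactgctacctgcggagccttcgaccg
Elf2: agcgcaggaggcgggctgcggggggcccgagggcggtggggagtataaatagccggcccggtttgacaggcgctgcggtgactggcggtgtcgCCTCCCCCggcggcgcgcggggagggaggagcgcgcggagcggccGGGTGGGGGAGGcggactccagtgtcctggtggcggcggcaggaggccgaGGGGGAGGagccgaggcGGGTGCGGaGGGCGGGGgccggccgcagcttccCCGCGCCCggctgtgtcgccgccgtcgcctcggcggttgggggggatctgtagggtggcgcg
Etv5: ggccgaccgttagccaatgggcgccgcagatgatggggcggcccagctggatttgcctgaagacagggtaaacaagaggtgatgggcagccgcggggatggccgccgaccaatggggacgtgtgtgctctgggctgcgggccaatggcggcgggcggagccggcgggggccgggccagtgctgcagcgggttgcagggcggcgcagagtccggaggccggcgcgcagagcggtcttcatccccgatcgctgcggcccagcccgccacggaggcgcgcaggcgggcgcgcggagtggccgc
The Elf3 window lies on the minus strand at chr1:135258423-135258722 and holds 2 matches, which begin 241 and 7 bases before the start. The first of 2 Elf2 windows lies on the minus strand at chr3:51340595-51340894 and holds 7 matches. The first of 2 Etv5 windows lies on the minus strand at chr16:22439521-22439820 and holds 0 matches, and the other holds 4. Over all 32851 RefSeq promoter windows of this length, 49.5% held the motif, and so did 8 of the 12 windows found for 7 of the members. The shorter ETS core with its flank, GGAAG on either strand, was in 71.4% of all windows and in 7 of these 12. The Elf3 window held 0 matches to GGAAG, but the GGAA core without that flank does occur in it. A match of letters is a description of the window and not a measured binding site.

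At an adjusted p of 0.05 in limma, 6 of the 10 ETS genes were called, with 4 lower (Elf3, Elf1, Elf4 and Ets2) and 2 higher (Etv5 and Ets1) in the Klf5D/D intestine. Over all 19938 genes 17.5% passed, 8.58% lower and 8.95% higher. The groups did not overlap for 9 of the 10, against 36% of all genes. The median log2 fold change of the 10 was −0.24, beside 0.02 over all genes. The members were proposed with results of these arrays known, so their share of calls is a description of this set.

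**Figure D1:**
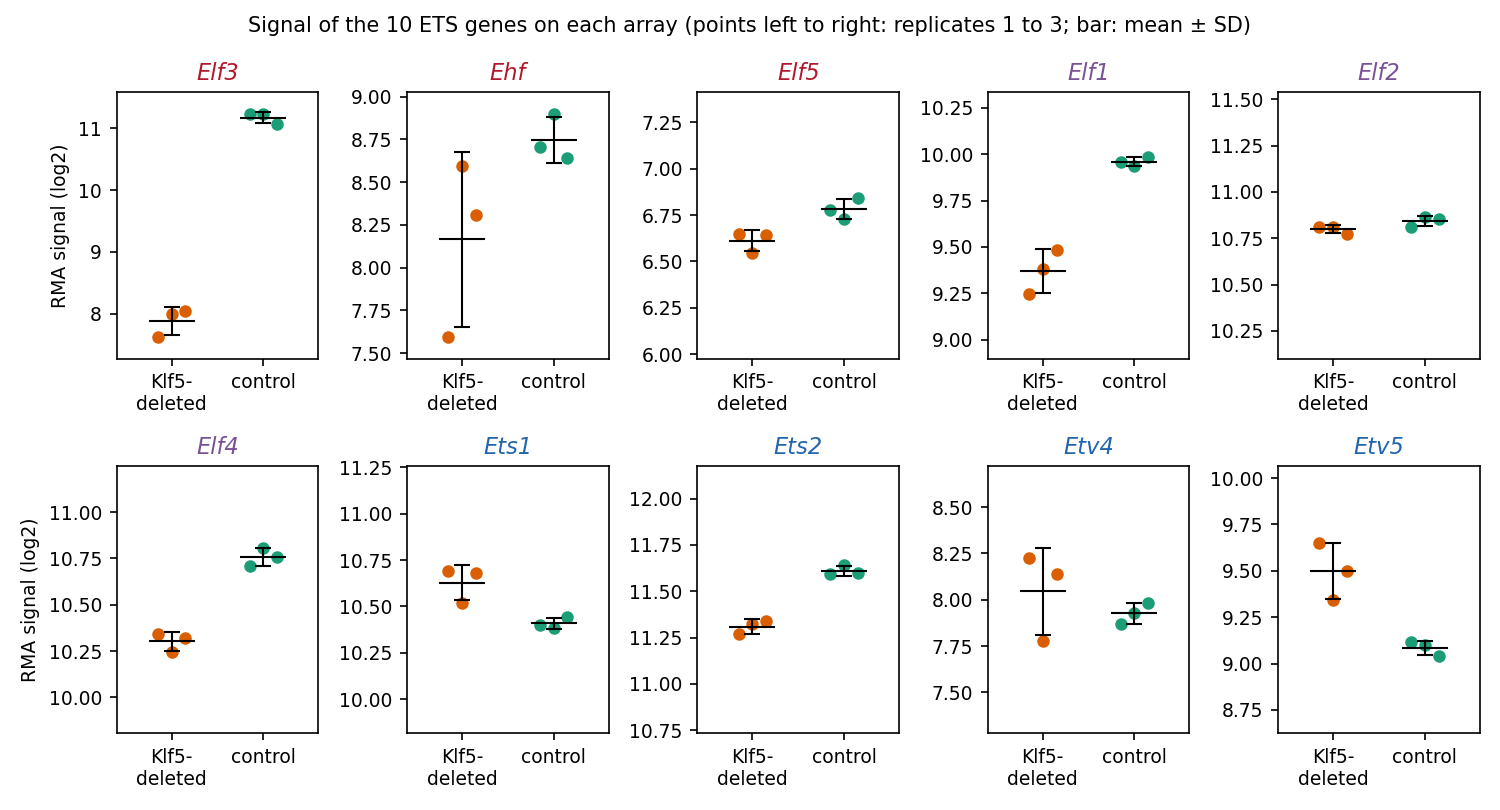
Log2 RMA signal (y axis, own range in each panel) of the 10 ETS genes in the 3 Klf5D/D arrays (left) and the 3 control arrays (right), with bars for the mean ± SD. Elf3 sits between 7.63 and 8.04 in the Klf5D/D arrays and between 11.06 and 11.22 in the controls, and only the Etv4 groups overlap.

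Among the ESE genes Elf3 fell and the other members did not pass the test. Elf3 read 7.63, 8.0 and 8.04 in the Klf5D/D arrays, against 11.22, 11.22 and 11.06 in the controls. The groups lay more than 3 log2 units apart, with all Klf5D/D arrays low. The log2 fold change was −3.28 (SE 0.11, 95% interval −3.54 to −3.02, adjusted p = 8.14e-06), which left 10.3% of the control signal. Of the 19938 genes, 5 had a more negative fold change, Xist among them. For Elf3 an exact permutation test (two-sided) returned p = 0.1, which is as low as 3 arrays against 3 can go. The Elf3 call was kept with each of the 6 arrays left out (−3.35 to −3.15). It was also kept with the share of Y-linked signal as a covariate (−3.12, adjusted p = 0.0168), a fit in which 1 of the 10 members passed. Control replicate 1, with the least Y-linked signal, read 11.22 for Elf3, beside 11.22 and 11.06 in the other controls. No control reached the Y-linked signal of the Klf5D/D arrays, so the part of sex in the Elf3 value cannot be told apart from that of genotype.

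Ehf, which encodes another ESE factor of glandular epithelia, read 7.60, 8.59 and 8.31 in the Klf5D/D arrays, against 8.70, 8.90 and 8.64 in the controls. Every Klf5D/D array was below every control, but replicate 2 was only just below the lowest control and replicate 1 was far below. The log2 fold change was −0.58 (SE 0.23, 95% interval −1.11 to −0.05) and did not pass over all genes (adjusted p = 0.133). Without Klf5D/D replicate 2 it passed (−0.79, adjusted p = 0.0455), and without Klf5D/D replicate 1 it was −0.30 (adjusted p = 0.12). Ehf too had p = 0.1 in the exact permutation test. Set against each other, the change of Elf3 minus that of Ehf was −2.70 on the log2 scale, with −3.02 to −2.39 in the Klf5D/D arrays and −0.10 to 0.10 in the controls. That difference had p = 0.1 in the exact two-sided permutation test, the smallest possible, and the limma intervals of the 2 genes did not overlap. RMA understates changes of dim signals. Ehf averaged 8.75 in the controls, and the part of its signal level in this difference was not tested.

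Elf5, an ESE gene known for its roles in trophoblast and mammary alveoli, was dim on every array. It read 6.65, 6.55 and 6.64 in the Klf5D/D arrays and 6.78, 6.73 and 6.84 in the controls. All Klf5D/D arrays were below all controls by a small margin, and the log2 fold change of −0.17 (SE 0.05) did not pass (adjusted p = 0.062).

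Epithelial marker genes were also lower, and all of them passed. Of the 19 measured genes of that list, 19 fell and 0 rose, whereas 8.58% of all genes fell. Their median log2 fold change was −0.85, with a range from −4.20 to −0.30. The count was 18 without control replicate 1 or 2, 19 without each of the other arrays, and 1 with the share of Y-linked signal as a covariate. In that covariate fit 17 had an unadjusted p under 0.05 in limma, and the median log2 fold change was −0.92. The adhesion genes Epcam and Cdh1, which define epithelium, fell by 0.61 (SE 0.07, adjusted p = 0.00187) and 0.94 (SE 0.10, adjusted p = 0.00087). Krt19 fell by 1.52 (SE 0.08), Spint2 by 0.85 (SE 0.06) and Ap1m2 by 0.93 (SE 0.07). The summed linear signal of the 19 genes was 23023 to 27500 in the Klf5D/D arrays, against 51902 to 53432 in the controls, a ratio of 0.484 between the group means. The dimmest marker of the list, Marveld3, averaged 7.34 over the 6 arrays. In whole intestine, fewer epithelial cells and less of an RNA per epithelial cell cannot be told apart.

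The fall of Elf3 was larger than that of 18 of the 19 epithelial markers, and the exception was the intestinal lectin gene Lgals4 (−4.20, SE 0.20), whose probes close paralogs can share. Its log2 fold change minus the median of these markers was −2.43. The log2 fold change of Ehf lay 0.26 above that median, and 16 of the 19 markers fell further. By array, Elf3 stood at −3.54, −3.17 and −3.13 relative to the control mean in Klf5D/D replicates 1 to 3, and the median marker at −1.0, −0.86 and −0.75. Ehf stood at −1.15, −0.15 and −0.44, so replicate 2 was high for Ehf and intermediate for Elf3 and for the markers.

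**Figure D2:**
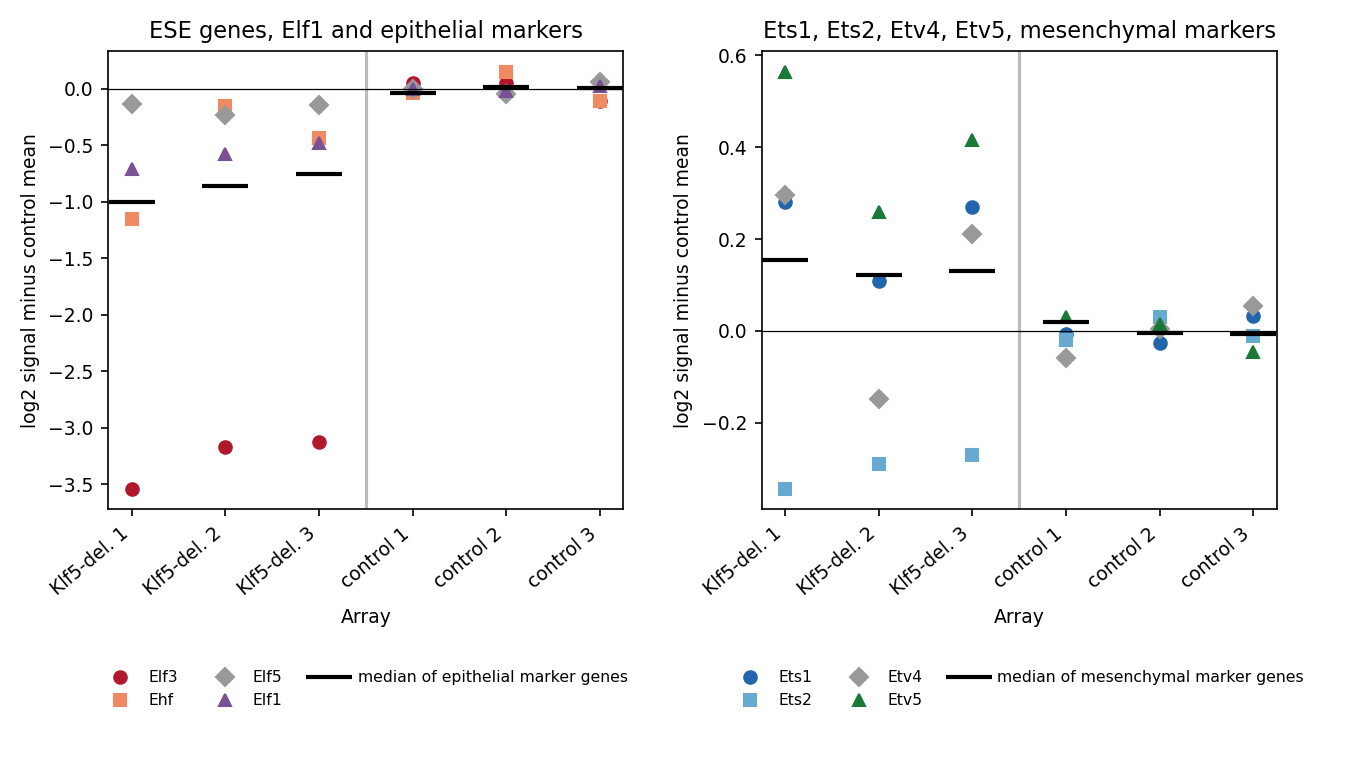
Log2 signal minus the control mean (y axis) on each of the 6 arrays (x axis, Klf5D/D left of control), for the ESE genes, Elf1 and the median epithelial marker (left panel) and for Ets1, Ets2, Etv4, Etv5 and the median mesenchymal marker (right panel). Elf3 lies at −3.54 to −3.13 in the Klf5D/D arrays, below the median marker at −1.0 to −0.75, and Etv5 lies at 0.26 to 0.56.

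The genes whose centred profile over the 6 arrays was nearest to that of Elf3 were Eps8l3, Fbp2, Clca3b, Trim31 and Kcne3, with root mean square differences of 0.16, 0.19, 0.22, 0.24 and 0.24 log2 units. Their log2 fold changes were −3.39, −3.11, −3.0, −2.92 and −3.53. Near-identical copies of Clca3b exist, which leaves the source of its signal uncertain. Eps8l3 is related to an actin-capping protein of microvilli, Fbp2 encodes a gluconeogenic enzyme and Kcne3 a potassium channel subunit. For Ehf the nearest were Cubn, Fap, Inpp5j, Ugt2b36 and Adamdec1, at 0.13 to 0.15, of which Inpp5j passed the test (−0.56, SE 0.14, adjusted p = 0.0336).

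Of 8 listed genes reported elsewhere to respond to ELF3 or EHF, 5 were measured. Of these 1 fell (20.0%, beside 8.58% of all genes), 0 rose and 4 did not pass, with a median of −0.16. Cldn7, a claudin of epithelial junctions that is also in the epithelial list, fell by 1.01 (SE 0.10, adjusted p = 0.000571). Tgfbr2, the TGF-beta receptor gene whose level depends on ELF3 in the intestine of mice, read 10.69, 10.70 and 10.77 in the Klf5D/D arrays and 10.57, 10.66 and 10.67 in the controls. Its values were slightly higher in the Klf5D/D arrays without overlap, and the log2 fold change of 0.09 (SE 0.05) did not pass (adjusted p = 0.278). Ptgs2 was at −0.29 (SE 0.12), Krt4 at −0.16 (SE 0.16) and Nos2 at −0.04 (SE 0.05), and these did not pass either.

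Of 11 TGF-beta ligand, receptor and SMAD genes, 4 rose and 1 fell, with a median of 0.15. That is 36.4% and 9.09%, beside the 8.95% and 8.58% of all genes. The ligand genes Tgfb2 and Tgfb3 rose by 0.58 (SE 0.08, adjusted p = 0.00317) and 0.48 (SE 0.10, adjusted p = 0.0151), and the receptor gene Tgfbr1 rose by 0.26 (SE 0.04, adjusted p = 0.00751). Acvr1b, an activin receptor gene, fell by 0.41 (SE 0.05, adjusted p = 0.0016). Without control replicate 3, 2 of the 11 rose, and Tgfb3 lost its call there (0.44, adjusted p = 0.0598). Tgfbr3, at 0.21 (SE 0.05, adjusted p = 0.0316), kept its call without Klf5D/D replicate 2 and lost it without any other array. With the share of Y-linked signal as a covariate, 0 of the 11 passed limma's test and 3 had an unadjusted p under 0.05.

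Among the widely expressed ELF genes, Elf1 and Elf4 fell and Elf2 did not pass. Elf1 read 9.25, 9.38 and 9.48 in the Klf5D/D arrays, against 9.96, 9.94 and 9.99 in the controls. The control arrays lay close together and all Klf5D/D arrays were below them, with a log2 fold change of −0.59 (SE 0.06, adjusted p = 0.00113). Elf1, a regulator of T-cell and endothelial genes, thus had a point estimate near that of Ehf with a smaller error. Elf1 kept its call with each array left out and lost it with the Y-linked share as a covariate (−0.54, adjusted p = 0.269).

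Elf4, an X-linked gene that controls quiescence of lymphocytes, read 10.34, 10.25 and 10.32 in the Klf5D/D arrays, against 10.71, 10.81 and 10.76 in the controls. All Klf5D/D arrays were lower, and the log2 fold change was −0.46 (SE 0.05, adjusted p = 0.00104). A dimmer row for Elf4 read 7.12 to 7.40 in the Klf5D/D arrays and 7.36 to 7.51 in the controls, and did not pass (−0.13, SE 0.08). The mean of both rows gave −0.30 (adjusted p = 0.00711). With the share of Y-linked signal as a covariate Elf4 was at −0.57 (adjusted p = 0.153).

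Elf2 read 10.81, 10.81 and 10.77 in the Klf5D/D arrays and 10.81, 10.87 and 10.85 in the controls. These values all but touched, and the log2 fold change of −0.04 (SE 0.04, 95% interval −0.14 to 0.05) did not pass (adjusted p = 0.562).

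Leukocyte markers were measured beside these genes because ELF factors are also lymphoid. Of 12, 1 fell and 0 rose, with a median of −0.13. The share that fell was 8.33%, near the 8.58% of all genes. Without control replicate 3, 2 fell. The gene that fell with all arrays was the actin-bundling gene Lcp1 (−0.72, SE 0.05). Ptprc, which defines leukocytes, was at −0.14 (SE 0.07, adjusted p = 0.277). The summed linear signal of the 12 was 5113 to 6224 in the Klf5D/D arrays, below the 6747 to 7367 of the controls. That sum includes Lcp1, which read 10.11, 10.12 and 10.03 in the Klf5D/D arrays, against 10.74, 10.81 and 10.89 in the controls. By array, the sums of the other markers without Lcp1 overlapped between the groups, so the gap does not hold for them. The groups did not overlap for 3 of the 12 markers, Lcp1 among them, against 36% of all genes. The part of leukocyte signal in the Elf1 and Elf4 values was not tested.

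The genes grouped as mesenchymal and FGF-responsive did not move one way. Etv5, an FGF target and effector, rose, Ets1 rose by less, Ets2 fell and Etv4 did not pass. Etv5 read 9.65, 9.34 and 9.50 in the Klf5D/D arrays, against 9.11, 9.10 and 9.04 in the controls. All Klf5D/D arrays were above the controls and spread more widely, with a log2 fold change of 0.41 (SE 0.08, adjusted p = 0.011). A further row for Etv5 read 9.33, 9.11 and 9.35 in the Klf5D/D arrays, against 8.96, 9.01 and 8.89 in the controls, and also passed when rows were tested singly (0.31, SE 0.07, adjusted p = 0.0261). The Etv5 call was kept with each array left out (0.34 to 0.49) and lost with the Y-linked share as a covariate (0.46, adjusted p = 0.38). The nearest profiles to Etv5 were those of Cysltr1, Olfml2b, Camk4, Bod1 and Peg3, at 0.02 to 0.04 log2 units, but 381 genes lay within 0.1.

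Etv4, the relative of Etv5 in the same subfamily, read 8.22, 7.78 and 8.14 in the Klf5D/D arrays and 7.87, 7.93 and 7.98 in the controls. Klf5D/D replicate 2 was below all controls and the other Klf5D/D arrays above them, so the groups overlapped. The log2 fold change was 0.12 (SE 0.11, 95% interval −0.14 to 0.38, adjusted p = 0.548). Without Klf5D/D replicate 2 it passed at 0.25 (adjusted p = 0.0373).

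Ets1 read 10.69, 10.52 and 10.68 in the Klf5D/D arrays, against 10.40, 10.38 and 10.44 in the controls. The Klf5D/D arrays were all higher, replicate 2 by the least, and the log2 fold change was 0.22 (SE 0.06, adjusted p = 0.0391). Of the 6 arrays, only Klf5D/D replicate 2 could be left out with the call kept. Leaving out Klf5D/D replicate 1 gave 0.19 (adjusted p = 0.0994) and leaving out replicate 3 gave 0.20 (adjusted p = 0.124). Among the controls, the value was 0.22 on omitting replicate 1 (adjusted p = 0.0965), 0.21 on omitting replicate 2 (adjusted p = 0.124) and 0.24 on omitting replicate 3 (adjusted p = 0.0829). It was also lost when each array was centred on its median (0.20, adjusted p = 0.0844) and with the Y-linked share as a covariate (0.23, adjusted p = 0.539).

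Ets2, an ERK-phosphorylated factor with roles in trophoblast and skin, read 11.27, 11.32 and 11.34 in the Klf5D/D arrays, against 11.59, 11.64 and 11.60 in the controls. All Klf5D/D arrays were low and both groups were tight. The fall was small, with a log2 fold change of −0.30 (SE 0.04, adjusted p = 0.00412), and its direction was opposite to that of Ets1 and Etv5. Its call was kept with each array left out and lost with the Y-linked share as a covariate (−0.34, adjusted p = 0.295).

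Mesenchymal markers were measured on the same arrays. Of 16, 5 rose (31.25%, beside 8.95% of all genes) and 0 fell, with a median of 0.13. Leaving out each array gave 4 or 5 higher. With the share of Y-linked signal as a covariate 0 of the 16 passed limma's test and 3 had an unadjusted p under 0.05. Pdgfra, a receptor of subepithelial mesenchyme, rose by 0.26 (SE 0.05, adjusted p = 0.01), Zeb1 by 0.29 (SE 0.04) and the gut mesenchyme factor gene Foxf1 by 0.25 (SE 0.05), while Vim was at 0.14 (SE 0.04, adjusted p = 0.0718). Their summed linear signal was 63987 to 67558 in the Klf5D/D arrays, against 57954 to 59410 in the controls. Endothelial markers, which bear on Ets1, had 0 of 12 past limma's threshold, beside 17.5% of all genes. Of the 12, 1 had an unadjusted p under 0.05. Pecam1 was at 0.05 (SE 0.06), and the summed endothelial signal of 15801 to 19670 in the Klf5D/D arrays overlapped the 16329 to 17357 of the controls. Of 6 mesothelial markers 4 rose and 2 fell, with a median of 0.57. That is 66.7% and 33.3%, beside the 8.95% and 8.58% of all genes. The urothelial and mesothelial gene Upk1b rose by 0.92 (SE 0.12) and Wt1 by 0.87 (SE 0.18), whereas Krt7 fell by 0.96 (SE 0.07) and Msln by 0.52 (SE 0.08). Of these 6, 1 rose without control replicate 2 or 3, and 2 rose without Klf5D/D replicate 1 or 2. None of the 6 passed limma's test with the Y-linked covariate, where 4 had an unadjusted p under 0.05. Their summed linear signal was 7157 to 9470 in the Klf5D/D arrays, against 5600 to 6973 in the controls. The part of the mesenchymal, endothelial and mesothelial values in the Etv5 and Ets1 values was not tested.

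Of 13 FGF and ERK feedback genes, the set in which Etv4 and Etv5 are usually read, 5 rose and 1 fell, with a median of 0.14. That is 38.5% and 7.69%, beside the 8.95% and 8.58% of all genes. Log2 fold changes of the 13 were positive for 7 and negative for 6. Spry2, an inhibitor of receptor tyrosine kinase signalling, rose by 0.50 (SE 0.05, adjusted p = 0.000858), Il17rd by 0.31 (SE 0.06, adjusted p = 0.0125) and the ERK phosphatase gene Dusp6 by 0.28 (SE 0.06, adjusted p = 0.0158). Phlda1 fell by 0.24 (SE 0.05, adjusted p = 0.0182). The ERK-induced genes Fos and Egr1 were at −0.01 (SE 0.14) and −0.08 (SE 0.05) and did not pass. Neither did Spry1 at 0.14 (SE 0.08), Spred2 at −0.003 (SE 0.04), Spry4 at −0.09 (SE 0.06) or Dusp4 at −0.09 (SE 0.10). Without control replicate 3, 2 rose and 0 fell, with Dusp6 at 0.25 (adjusted p = 0.0579). With Klf5D/D replicate 2, Klf5D/D replicate 3 or control replicate 2 left out, 3 rose. In the fit with the Y-linked covariate 0 of the 13 passed limma's test and 3 had an unadjusted p under 0.05. Phlda1 was not called at −0.21 on omitting Klf5D/D replicate 2 (adjusted p = 0.0552), at −0.22 on omitting control replicate 2 (adjusted p = 0.0717) or at −0.24 on omitting control replicate 3 (adjusted p = 0.0525).

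The contrast of the 2 classes was carried mostly by Elf3. The mean log2 fold change was −1.34 for the 3 ESE genes and 0.11 for the 4 mesenchymal and FGF-responsive genes, a difference of −1.46. Ets2, which fell, was counted in the latter class. By array, relative to the control mean, that difference was −1.81, −1.17 and −1.39 in Klf5D/D replicates 1 to 3, against 0.02, 0.04 and −0.06 in the controls. With Elf3 left out it was −0.49. The widely expressed ELF genes averaged −0.36, between the other classes. These are descriptions with no test, since 3 and 4 chosen genes stand for each class.

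Of 15 further ETS genes measured, 3 rose and 1 fell, which is 20.0% and 6.67% beside the 8.95% and 8.58% of all genes, and their median was 0.01. Etv1, which completes the subfamily of Etv4 and Etv5 and marks interstitial cells of Cajal, rose by 0.33 (SE 0.05, adjusted p = 0.00549). Elk3, an ERK-responsive factor, rose by 0.29 (SE 0.05, adjusted p = 0.00849), and both calls were kept with each array left out. Both were lost with the Y-linked covariate, where Etv1 was at 0.19 (adjusted p = 0.534) and Elk3 at 0.38 (adjusted p = 0.284). Fli1, of endothelium and blood, was at 0.21 (SE 0.06, adjusted p = 0.0478) and lost its call on leaving out any array (0.16 to 0.24, adjusted p = 0.0659 to 0.143). Etv6 was at −0.25 (SE 0.06, adjusted p = 0.0325). That call was lost at −0.19 on omitting Klf5D/D replicate 2 (adjusted p = 0.0737) and at −0.27 on omitting Klf5D/D replicate 3 (adjusted p = 0.0588). Omitting control replicate 2 gave −0.22 (adjusted p = 0.113) and omitting control replicate 3 gave −0.24 (adjusted p = 0.0979).

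The other ETS genes tied to single lineages did not pass. Spdef, the goblet cell factor, was at −0.25 (SE 0.09, adjusted p = 0.0915), Erg, of endothelium, at 0.03 (SE 0.06) and Spi1, of myeloid cells, at −0.08 (SE 0.10). Without control replicate 3 Spdef passed at −0.34 (adjusted p = 0.0368). Over the 25 ETS genes measured, the fall of Elf3 had the largest size, and the other 24 lay between −0.59 and 0.41.

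**Figure D3:**
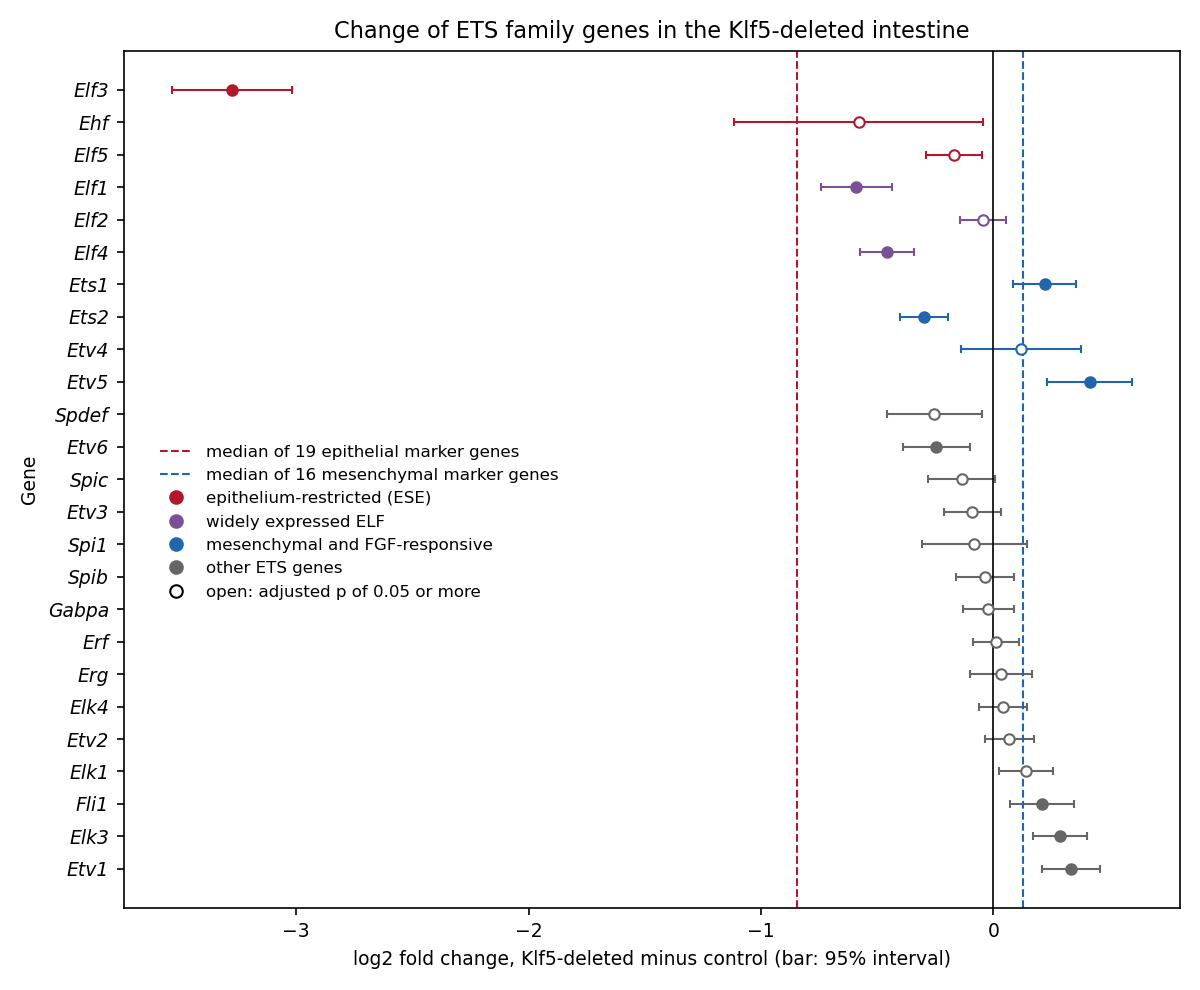
Log2 fold change, Klf5D/D minus control (x axis), of 25 ETS genes (y axis), with 95% intervals from limma, filled where the adjusted p is under 0.05. Dashed lines give the median of the epithelial markers (−0.85) and of the mesenchymal markers (0.13), and Elf3 at −3.28 lies apart from the other 24 genes.

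**Figure D4:**
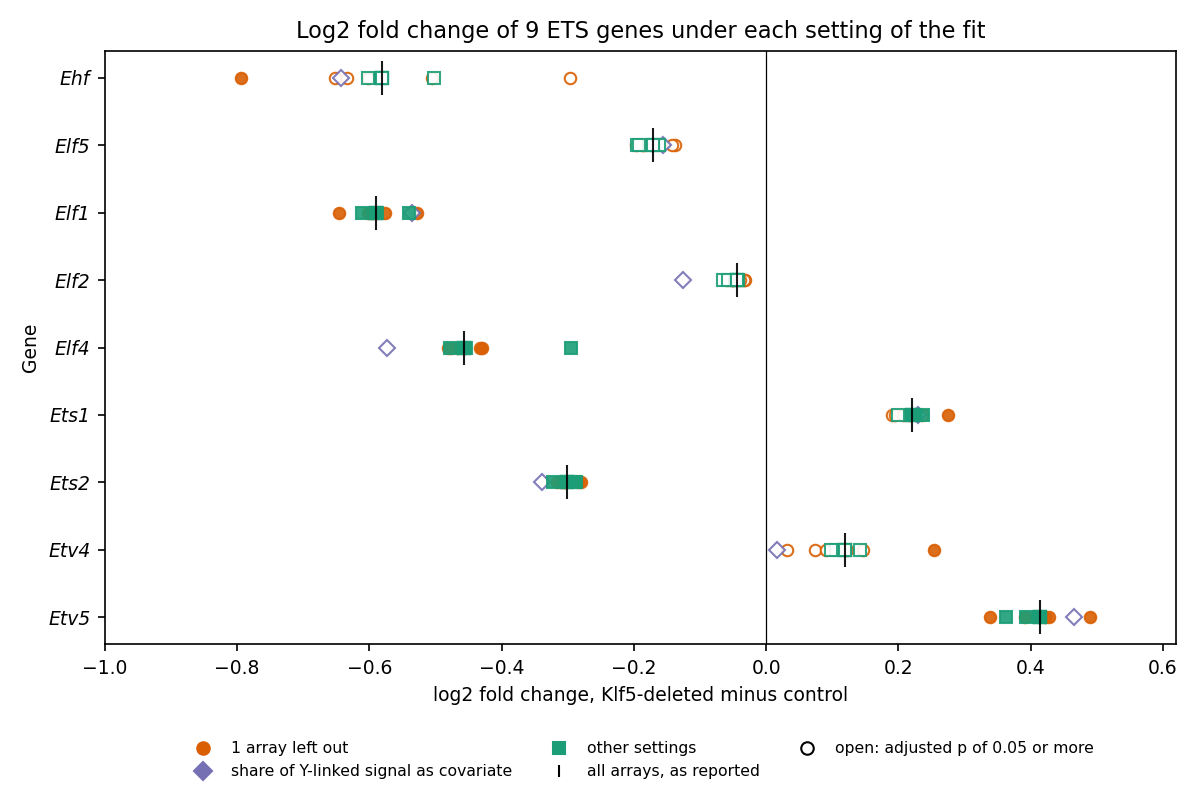
Log2 fold change of the 9 members other than Elf3 (x axis) under each setting of the fit, filled where the adjusted p is under 0.05. Every point lies on the same side of 0 as the value with all arrays, and Ehf ranges from −0.79 to −0.30 with single arrays left out.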

How the data were processed

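The authors hybridised RNA of pooled intestines to Affymetrix Mouse Gene 1.0 ST arrays and deposited log2 signals. The submitters' processing notes name RMA and Affymetrix Expression Console 1.1, and so, per the submitters' processing notes, the values are RMA summaries. RMA corrects background, equalises the distributions of arrays by quantile normalization and summarises probes, so a shift of most genes is removed and changes of dim genes are understated. For the array, build and annotation were not given in the sources used here. Groups and replicate numbers came from sample titles, and whether pools came from separate litters is not stated, so a p-value here reflects only how much these pools vary.

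Of 35557 rows, 21789 had 1 symbol, 1621 several and 12147 none. Symbols were updated by gene ID (21698 matched), and the brightest row per gene was kept, giving 19938 genes with no filter on level. Limma 3.58.1 in R 4.3.3 gave Klf5D/D minus control differences, and p-values were adjusted by Benjamini-Hochberg across all genes. The fit was tested on simulated data. Promoters of 7 of the 10 members were matched in RefSeq. Named genes were the members, Klf5, the 5 nearest profiles of Elf3, Ehf and Etv5, up to 4 genes per list by smallest p, and defining markers. Spdef, Erg, Spi1, Nos2, Tgfbr3, Fos, Egr1, Spry1, Spry4, Spred2, Dusp4, Marveld3 and Elk1 were named after their values were seen. The members, classes, lists and tests were chosen with earlier results of these data known. Of the 149 list entries, 9 were not matched and are not analysed here. Lists of enteric neurons and glia (1 of 9 higher, 1 lower) and smooth muscle (1 of 8 higher, 0 lower) were also measured. Over all genes 8.95% were higher and 8.58% lower. Neuron and glia had 2 higher without Klf5D/D replicate 1 or control replicate 3, and smooth muscle 2 lower without Klf5D/D replicate 3. Alternatives were arrays left out singly, a replicate block, 2 normalizations, 2 filters on dim genes, trend and robust variance, array weights, other treatments of rows, a Y-linked covariate and a threshold of 0.1. The number of arrays limits precision.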

Additional observations from a re-analysis of the deposited data

How the results depend on the processing

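All 10 members kept their direction under every alternative run. The replicate block, the filters on dim genes, trend and robust variance and rows tested singly leave a log2 fold change as it was. These settings could change a call but not a direction. Over all the alternative fits, 142 of the member values kept their side of the threshold, 12 lost a call and 2 gained one. The share of Y-linked signal as a covariate left 83 genes past the threshold (4 higher, 79 lower) against 3496, and 1 member (0 higher, 1 lower) against 6, and its median SE was 0.147 against 0.0594. The replicate block gave 2008 genes (900 higher, 1108 lower) and 5 members, 1 of them higher, with Ets1 lost (0.22, adjusted p = 0.0795). Under this block 2 mesenchymal markers were higher, and 2 FGF and ERK genes were higher and 0 lower. Deviations of same-numbered arrays correlated at −0.14, −0.27 and −0.03, which gave no sign of pairing by number. With 3 arrays per group, these values cannot show whether pools shared a litter or batch. Median centring left 1 member higher. With single arrays left out, 2000 to 2757 genes passed, lowest without control replicate 2 (868 higher, 1132 lower). The ranges were 868 to 1363 higher and 1132 to 1394 lower. From 1 to 3 members were then higher. The contrast of the classes was −1.59 without Ets2, −2.04 without Elf5 and −0.49 without Elf3. The setting without Elf3 was added after seeing the data. Elf5 was not tested with the lowest 25% of genes left out, nor Elf5, Ehf and Etv4 with the lowest 50%. Signals near the array's floor, such as those of Elf5, limit what can be seen.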

Other observations

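Klf5D/D replicate 2 was the lowest of the 3 Klf5D/D arrays for several genes at once, a pattern noticed after the values were seen and described without a test. Relative to the control mean, Etv5 stood at 0.56, 0.26 and 0.42 in Klf5D/D replicates 1 to 3, Etv4 at 0.30, −0.15 and 0.21, and Ets1 at 0.28, 0.11 and 0.27. The median endothelial marker stood at 0.16, −0.08 and 0.08 on the same arrays, and the median leukocyte marker at −0.06, −0.34 and −0.02. The median mesenchymal marker differed less, at 0.15, 0.12 and 0.13. The values of Elf3 on these arrays did not follow this order.

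The other X-linked ETS gene measured was Elk1, which encodes a serum response cofactor phosphorylated by ERK. It read 10.62, 10.50 and 10.58 in the Klf5D/D arrays and 10.47, 10.41 and 10.40 in the controls, with a log2 fold change of 0.14 (SE 0.05, adjusted p = 0.0992).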
